A study of Mus musculus with 15 samples.

Results

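The 45 genes described here encode the machinery that copies DNA in S phase, and they were taken from a table of 52327 mouse genes by their symbols, with no threshold on a measured value. All 45 had at least 10 counts in every library, so all were among the 13123 genes that could be tested. The study measured mRNA in HoxB cells, a mouse line whose cell type label is Blood, in 15 libraries that form 5 groups of 3. The question its labels give is whether the order in which 2 leukaemia alleles arrive matters. EMPTY cells had control vectors. RUNX1-ETO_ONLY cells had the fusion of the transcription factor RUNX1 with ETO, and CSF3R_ONLY cells had CSF3R, which binds the granulocyte growth factor G-CSF, with the activating change T618I. RUNX1-ETO_FIRST and CSF3R_FIRST cells had both alleles, named by the one that came first. All groups share the parental line, and the vectors, their promoters, the interval between the 2 alleles, the number of clones and the culture conditions are unknown here. Nothing in the labels says that replicates were separate cultures. The p-values thus set differences between groups only against the spread of these libraries within groups, which may be technical.

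DNA replication begins when the origin recognition complex, Cdc6 and Cdt1 load the MCM helicase on origins in G1 phase. Kinases, Cdc45 and the GINS complex then switch the helicase on, and primase, polymerases, the sliding clamp and its loader copy both strands while enzymes of nucleotide metabolism supply the building blocks. Many of these genes are transcribed together near the start of S phase under E2F factors, which the retinoblastoma family holds in check, and their mRNAs are commonly read as a sign of cycling. In blood formation, progenitors cycle actively and maturing granulocytes leave the cycle.

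Total counts per library ranged from 17007437 to 18178292. Levels are in CPM, the gene's count relative to the library's total, with totals scaled between libraries by the trimmed mean of M values (TMM). Runx1t1, the mouse gene of the ETO part, had no counts in EMPTY and CSF3R_ONLY libraries. It was at 391 to 513 CPM in RUNX1-ETO_ONLY, 380 to 563 CPM in RUNX1-ETO_FIRST and 559 to 812 CPM in CSF3R_FIRST. Runx1 was at 537 to 669 CPM in RUNX1-ETO_FIRST and 685 to 818 CPM in CSF3R_FIRST, which do not overlap. The double groups thus differed in these levels as well as in order, and the part of this in the order comparison was not tested. Csf3r was at 373 to 465 CPM in EMPTY and 617 to 626 CPM in CSF3R_ONLY, but at 366 to 441 CPM in the libraries of both double groups. In RUNX1-ETO_ONLY, which has no receptor allele, it was at 507 to 536 CPM. Its mRNA thus does not by itself mark the receptor allele. To check the cell type label, markers were summed. The primary granule genes Mpo, Elane, Prtn3 and Ctsg summed to 48705 to 56407 CPM in EMPTY, 31558 to 31913 CPM in CSF3R_ONLY, 20162 to 21777 CPM in RUNX1-ETO_ONLY, 16320 to 18500 CPM in RUNX1-ETO_FIRST and 17080 to 17775 CPM in CSF3R_FIRST. In 4 libraries (replicate 1 of RUNX1-ETO_FIRST and replicate 3 of CSF3R_FIRST, of EMPTY and of RUNX1-ETO_ONLY) long transcripts were under-represented within the group (correlation across genes of deviation with transcript length from -0.54 to -0.39). The mean deviation of the 45 genes in these libraries was -0.01 to 0.04 on the log2 scale, but this mean hides opposite shifts of single genes. In EMPTY replicate 3 Rfc1 was at 75.3 CPM, beside 114 and 110 CPM in replicates 1 and 2. Dut was at 149 CPM there, beside 97.9 and 96.7 CPM. In RNA from whole cultures, fewer cycling cells and less mRNA per cell cannot be told apart.

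Promoter letters show what many of these genes have in common besides function. RefSeq promoters on GRCm38.p6, from 250 bases before to 50 bases after a start, were matched for 37 of the 45 genes. The letters searched as E2F letters were TTTCCCGC, TTTGGCGC, TTTCGCGC and TTTGCCGC on both strands, with overlaps allowed. They were found in 14 of the 37 genes, and in 31.1% of the 45 promoters of these genes against 2.26% of all 32851 promoters of the same length. The genes were Mcm3, Mcm5, Mcm6, Mcm7, Orc1, Cdc6, Cdt1, Gins3, Pola1, Pold1, Pole2, Rfc3, Lig1 and Uhrf1. The letters CCAAT were in 57.8% of these promoters against 37.4% of all, and GGGCGG in 71.1% against 35.7%. The letters TTTGAA were in 15.6% against 17.9%. A match is a description of letters and shows no binding. Below are the 160 bases just before the RefSeq start, 5′ to 3′ on the gene's strand, of 4 genes with E2F letters, in capitals, and of Tyms, which had none and which went against most other members in the values that follow. The GENCODE M21 gene models of Orc1 and Gins3 begin inside these stretches, at 108579423 and 95633453, so their E2F letters lie within those models. Mcm5 lies at chr8:75109349-75109508 on the plus strand, Mcm6 at chr1:128359706-128359865 on the minus strand, Orc1 at chr4:108579294-108579453 on the plus strand, Gins3 at chr8:95633399-95633558 on the plus strand and Tyms at chr5:30073626-30073785 on the minus strand.
Mcm5: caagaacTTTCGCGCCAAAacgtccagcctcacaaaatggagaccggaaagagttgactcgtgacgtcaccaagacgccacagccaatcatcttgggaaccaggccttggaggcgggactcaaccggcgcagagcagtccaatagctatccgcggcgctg
Mcm6: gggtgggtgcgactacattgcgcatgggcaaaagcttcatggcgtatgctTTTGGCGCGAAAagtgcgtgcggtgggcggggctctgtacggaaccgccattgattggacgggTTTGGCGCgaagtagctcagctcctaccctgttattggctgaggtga
Orc1: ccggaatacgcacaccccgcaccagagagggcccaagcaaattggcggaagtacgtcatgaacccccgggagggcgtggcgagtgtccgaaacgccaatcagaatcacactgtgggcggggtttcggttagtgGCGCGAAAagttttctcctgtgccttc
Gins3: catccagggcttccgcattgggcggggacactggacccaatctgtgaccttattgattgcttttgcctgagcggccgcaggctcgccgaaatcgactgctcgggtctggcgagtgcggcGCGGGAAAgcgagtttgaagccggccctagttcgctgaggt
Tyms: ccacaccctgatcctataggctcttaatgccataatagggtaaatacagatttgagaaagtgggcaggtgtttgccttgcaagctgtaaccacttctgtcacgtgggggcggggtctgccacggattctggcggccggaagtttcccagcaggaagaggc

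Summed over the 45 genes, the level was 6023 to 6254 CPM in EMPTY, 5729 to 5938 CPM in RUNX1-ETO_ONLY and 5958 to 6047 CPM in CSF3R_ONLY. It was 4746 to 4884 CPM in RUNX1-ETO_FIRST and 3791 to 3949 CPM in CSF3R_FIRST. Cells with either allele alone thus lay near the control cells in total, cells with both alleles lay below every library of the other 3 groups, and cells that had received the receptor first lay lowest. Most single genes followed the same order. CSF3R_FIRST had the lowest group mean for 41 of the 45 genes, against 27.2% of all tested genes, and for 33 of them all 3 CSF3R_FIRST libraries lay below the other 12 libraries, against 6.84% of all tested genes. RUNX1-ETO_FIRST was then the second lowest group for 38 genes, against 14.5% of all tested genes. The exceptions to the lowest rank were Rfc2 and Tyms, lowest in EMPTY, and Dut and Gmnn, lowest in RUNX1-ETO_FIRST. The highest mean was in EMPTY for 21 genes and in RUNX1-ETO_ONLY and CSF3R_ONLY for 12 each.

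**Figure D1:**
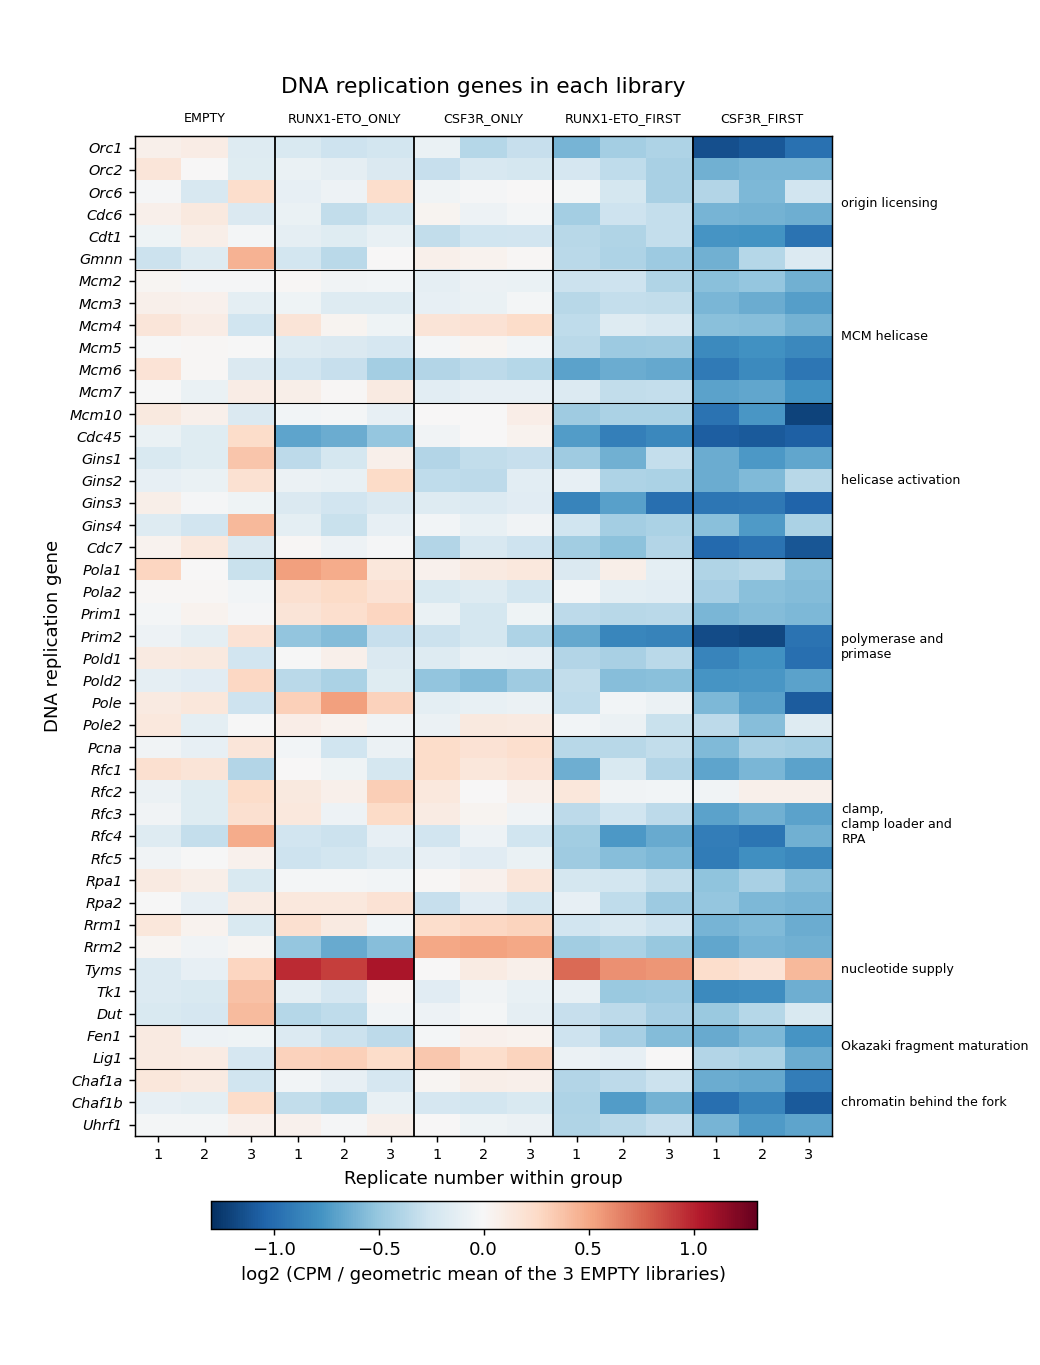
Level of each of the 45 DNA replication genes in each of the 15 libraries, as log2 of CPM over the geometric mean of the 3 EMPTY libraries, with genes grouped by role and libraries by group. The 3 CSF3R_FIRST columns are the lowest for most genes and the RUNX1-ETO_FIRST columns the next lowest, while Tyms is higher in the groups with the fusion and Rfc2 hardly differs between groups.

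Differences were tested by quasi-likelihood F tests in edgeR over all 13123 genes, with Benjamini-Hochberg adjusted p-values and a threshold of 0.05, and every adjusted p below is from this fit. All log2 values below are differences between groups. In the order comparison, RUNX1-ETO_FIRST minus CSF3R_FIRST, 24 of the 45 genes were higher, against 7.22% of all tested genes, and 0 were lower, against 11.1%. Also 0 members were lower at an unadjusted p under 0.05, with DESeq2 or with limma-voom. The median log2 difference was 0.28, against 0.00 over all tested genes, and 42 of 45 values were above 0. For 35 genes the 3 RUNX1-ETO_FIRST libraries all lay above the 3 CSF3R_FIRST libraries. The share of all tested genes separated in this way was not counted, so this number has no background to be read against. Positions here are GENCODE M21 gene models on mm10, for the genes that the comparisons turn on most. These are Pole (ENSMUSG00000007080, chromosome 5, 110286306 to 110337474), Orc1 (ENSMUSG00000028587, chromosome 4, 108579423 to 108614833), Mcm6 (ENSMUSG00000026355, chromosome 1, 128331590 to 128359664), Cdc45 (ENSMUSG00000000028, chromosome 16, 18780447 to 18811987), Rrm2 (ENSMUSG00000020649, chromosome 12, 24708241 to 24714146), Tyms (ENSMUSG00000025747, chromosome 5, 30058202 to 30073617) and Lig1 (ENSMUSG00000056394, chromosome 7, 13277283 to 13311433). The largest differences in the order comparison were those of Pole (log2 0.63), Orc1 (0.59), Cdc7 (0.57) and Mcm10 (0.53). Of the 24 calls, 14 held in all 14 alternative settings, and 15 genes were called without CSF3R_FIRST replicate 3. TMM centres the median gene near 0, and scaling by library sizes alone moved the median of all genes to 0.10 and that of the 45 genes to 0.38, with 34 of them higher.

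**Figure D2:**
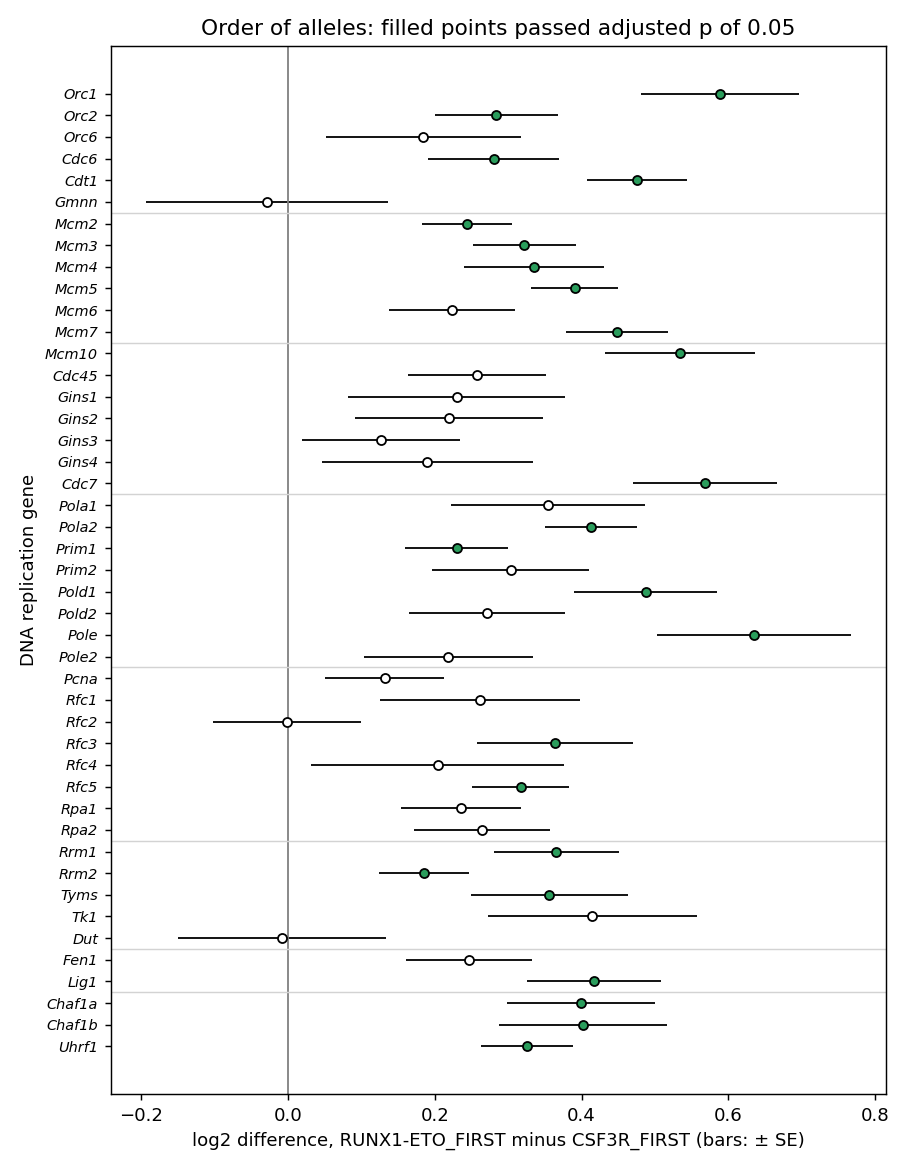
The log2 difference between RUNX1-ETO_FIRST and CSF3R_FIRST for each of the 45 genes, grouped by role, with bars of 1 standard error (SE) and filled points for adjusted p under 0.05. All but Gmnn, Rfc2 and Dut lie right of 0, and Pole, Orc1, Cdc7 and Mcm10 lie farthest from it.

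Each allele alone moved a minority of the genes, in both directions. With the fusion alone, RUNX1-ETO_ONLY minus EMPTY, 6 genes rose, against 20.8% of all tested genes, and 8 fell, against 18.2%, with a median log2 difference of -0.12. Both shares are near or under those of all genes. With the mutant receptor alone, CSF3R_ONLY minus EMPTY, 3 genes rose, against 19.9%, and 7 fell, against 13.2%, with a median of -0.09. The 4 changes with the fusion that held in all 14 alternatives were those of Tyms, Cdc45, Rrm2 and Prim2, and the 4 with the receptor were those of Rrm2, Pold2, Mcm6 and Cdt1. These counts were sensitive to single libraries. Without EMPTY replicate 3 the fusion counts were 3 higher and 13 lower, and without RUNX1-ETO_ONLY replicate 2 only 2 genes were higher. Without CSF3R_ONLY replicate 1 or 3 the receptor counts were 1 higher in each case, with 4 or 3 lower.

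Cells with both alleles were below EMPTY for most of the genes. In RUNX1-ETO_FIRST 36 genes fell relative to EMPTY, against 20.2% of all tested genes, and 1 rose, against 23.7%, with a median log2 difference of -0.35. In CSF3R_FIRST 43 fell, against 26.7%, and 1 rose, against 26.8%, with a median of -0.67. The gene that rose was Tyms in each case, and the gene not called in CSF3R_FIRST was Rfc2. These comparisons share the EMPTY libraries. Against the single-allele group that each double group started from, the receptor added to fusion cells (RUNX1-ETO_FIRST minus RUNX1-ETO_ONLY) went with a fall of 25 genes, against 10.3%, and a rise of 0, against 16.0%, with a median of -0.30. The fusion added to receptor cells (CSF3R_FIRST minus CSF3R_ONLY) went with a fall of 39 genes, against 22.6%, and a rise of 0, against 22.3%, with a median of -0.63. At an unadjusted p under 0.05 no gene rose in either of these comparisons. DESeq2 called 1 rise in the first and limma-voom 1 in the second. Scaled by library size only, all tested genes had a median of -0.19 in CSF3R_FIRST against EMPTY, -0.14 with the receptor added and -0.10 with the fusion added, and the members' medians were -0.81, -0.42 and -0.71.

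The 6 origin licensing genes, which mark and load origins, included 4 that were higher in RUNX1-ETO_FIRST than in CSF3R_FIRST, against 7.22% of all tested genes. Orc1, the origin recognition subunit that binds origins in G1, was at 22.3, 22.8 and 18.9 CPM in EMPTY, 18.6, 17.6 and 18.03 CPM in RUNX1-ETO_ONLY, 19.95, 16.4 and 17.2 CPM in CSF3R_ONLY, 14.0, 15.6 and 16.1 CPM in RUNX1-ETO_FIRST and 9.63, 9.92 and 10.9 CPM in CSF3R_FIRST. Its 3 CSF3R_FIRST libraries were lowest of the 15, and its RUNX1-ETO_FIRST libraries lay below all libraries of EMPTY, RUNX1-ETO_ONLY and CSF3R_ONLY. The order difference was 0.59 on the log2 scale (SE 0.11, adjusted p = 0.00121), and relative to EMPTY Orc1 fell by 1.07 in CSF3R_FIRST (SE 0.11, adjusted p = 4.16e-07) and by 0.49 in RUNX1-ETO_FIRST (adjusted p = 0.00117). Cdt1, which brings the helicase to origins and was the most abundant of the 6 per kilobase, was at 169, 185 and 172 CPM in EMPTY, 162, 157 and 164 CPM in RUNX1-ETO_ONLY, 141, 147 and 147 CPM in CSF3R_ONLY, 136, 134 and 141 CPM in RUNX1-ETO_FIRST and 103, 103 and 90.1 CPM in CSF3R_FIRST. CSF3R_FIRST libraries lay below all others. It was higher by 0.48 in the order comparison (SE 0.07, adjusted p = 0.000152) and fell by 0.27 with the receptor alone (adjusted p = 0.00497). Orc2, another origin recognition subunit, and the helicase-loading ATPase Cdc6 were each higher by 0.28 in the order comparison (adjusted p = 0.0273 and 0.0407), and each of these calls held in 8 of 14 alternatives. Geminin (Gmnn), the inhibitor of Cdt1, fell relative to EMPTY in both double groups (by 0.44 and 0.41) and with the fusion added to receptor cells (by 0.42, adjusted p = 0.0473), but it did not differ detectably with the order of alleles. Its levels were 21.4, 23.1 and 35.4 CPM in EMPTY, 20.4, 19.6 and 18.7 CPM in RUNX1-ETO_FIRST and 16.8, 20.02 and 23.0 CPM in CSF3R_FIRST, so the double groups overlapped (log2 -0.03, SE 0.17, adjusted p = 0.932). The high EMPTY library is replicate 3, and without it Gmnn was not called against EMPTY in either double group. Orc6 was at 25.5 to 33.6 CPM in RUNX1-ETO_FIRST and 22.8 to 28.7 CPM in CSF3R_FIRST, which overlap.

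The 6 subunits of the MCM helicase, the ring that unwinds DNA, moved together. All 6 fell relative to EMPTY in RUNX1-ETO_FIRST, against 20.2% of all tested genes, and in CSF3R_FIRST, against 26.7%. All 6 also fell in each double group relative to its starting group. The shares of all tested genes were 10.3% for the receptor added and 22.6% for the fusion added, and the medians of the 6 were -0.29 and -0.59. Mcm6, whose promoter is printed above, was at 529, 471 and 408 CPM in EMPTY, 393, 380 and 344 CPM in RUNX1-ETO_ONLY, 359, 369 and 362 CPM in CSF3R_ONLY, 287, 298 and 295 CPM in RUNX1-ETO_FIRST and 247, 263 and 244 CPM in CSF3R_FIRST. Its levels stepped down from EMPTY to the single groups and again to the double groups with no overlap between EMPTY, single and double libraries. Mcm6 was the subunit that each allele lowered on its own, by 0.34 with the fusion (SE 0.09, adjusted p = 0.00529) and by 0.37 with the receptor (SE 0.09, adjusted p = 0.00318), and it was the one subunit not called in the order comparison (0.22, adjusted p = 0.0851) although the libraries did not overlap. Mcm7 was at 404, 384 and 434 CPM in EMPTY, 361, 327 and 327 CPM in RUNX1-ETO_FIRST and 252, 256 and 236 CPM in CSF3R_FIRST, the widest order difference of the 6 (0.45, SE 0.07, adjusted p = 0.000319). Mcm5, also shown with its promoter, was at 363, 367 and 363 CPM in EMPTY and 357, 369 and 355 CPM in CSF3R_ONLY, which overlap, and at 286, 262 and 264 CPM in RUNX1-ETO_FIRST and 206, 211 and 204 CPM in CSF3R_FIRST. It fell by 0.19 with the fusion alone (adjusted p = 0.0181), a call lost in 4 of 14 alternatives, and by 0.80 when the fusion was added to receptor cells (SE 0.06, adjusted p = 2.1e-08). Mcm2, Mcm3 and Mcm4 were higher in RUNX1-ETO_FIRST than in CSF3R_FIRST by 0.24 to 0.34. Mcm3 had the highest mean CPM of the 6. Per kilobase of a gene's annotated exon sequence, it also had the highest level of all 45 genes, 97.0 CPM per kilobase over all libraries. It was at 445, 441 and 387 CPM in EMPTY, 406, 378 and 376 CPM in RUNX1-ETO_ONLY, 392, 398 and 416 CPM in CSF3R_ONLY, 330, 341 and 338 CPM in RUNX1-ETO_FIRST and 281, 270 and 257 CPM in CSF3R_FIRST. The 3 CSF3R_FIRST libraries were lowest and the RUNX1-ETO_FIRST libraries next.

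The 7 genes that switch the helicase on were lowest in CSF3R_FIRST. Only Cdc7 and Mcm10 passed the test of the order of alleles, both higher in RUNX1-ETO_FIRST, against 7.22% of all tested genes. Cdc7, the kinase that phosphorylates the MCM ring, was at 25.1, 26.8 and 21.3 CPM in EMPTY, 24.6, 23.2 and 24.1 CPM in RUNX1-ETO_ONLY, 18.7, 21.0 and 20.2 CPM in CSF3R_ONLY, 17.7, 16.8 and 18.6 CPM in RUNX1-ETO_FIRST and 12.1, 12.5 and 11.3 CPM in CSF3R_FIRST. Its order difference was 0.57 (SE 0.10, adjusted p = 0.000748), and CSF3R_FIRST stood apart from the other 12 libraries. Mcm10, needed for helicase activation, was at 109, 104 and 87.1 CPM in EMPTY, 96.8, 98.03 and 92.6 CPM in RUNX1-ETO_ONLY, 100, 100 and 105 CPM in CSF3R_ONLY, 72.1, 74.7 and 74.9 CPM in RUNX1-ETO_FIRST and 51.1, 58.9 and 43.0 CPM in CSF3R_FIRST. The double groups lay below the 9 other libraries, CSF3R_FIRST lowest. It was higher by 0.53 in the order comparison (SE 0.10, adjusted p = 0.00178) and fell by 0.997 when the fusion was added to receptor cells (SE 0.10, adjusted p = 8.91e-07). Cdc45, the helicase cofactor, followed the fusion instead. It was at 102, 96.7 and 127 CPM in EMPTY and 104, 108 and 111 CPM in CSF3R_ONLY, but at 67.0, 68.7 and 75.7 CPM in RUNX1-ETO_ONLY, 65.2, 58.0 and 60.3 CPM in RUNX1-ETO_FIRST and 51.4, 50.6 and 51.5 CPM in CSF3R_FIRST. All 9 libraries with the fusion lay below all 6 without it, with a fall of 0.62 for the fusion alone (SE 0.09, adjusted p = 5.99e-05) and of 1.07 for the fusion added to receptor cells (SE 0.09, adjusted p = 1.45e-07), and the order difference of 0.26 was not called (adjusted p = 0.0721). Gins3, a subunit of the GINS complex and the gene with the lowest level per kilobase (3.07 CPM), was at 11.5, 10.8 and 10.4 CPM in EMPTY, 9.54, 9.15 and 9.54 CPM in RUNX1-ETO_ONLY, 9.69, 9.61 and 9.80 CPM in CSF3R_ONLY, 6.002, 6.66 and 5.53 CPM in RUNX1-ETO_FIRST and 5.66, 5.73 and 5.28 CPM in CSF3R_FIRST. Both double groups were low and they overlapped (order 0.13, adjusted p = 0.496), and the fall relative to EMPTY was 0.84 with the fusion first (adjusted p = 4.79e-06) and 0.97 with the receptor first (adjusted p = 8.87e-07). Gins1, Gins2 and Gins4 had order differences of 0.19 to 0.23, none past the threshold.

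The 8 polymerase and primase genes included 4 that rose and 2 that fell with the fusion alone, against 20.8% and 18.2% of all tested genes. Pole, the catalytic subunit of polymerase epsilon, which copies the leading strand, was at 125, 128 and 95.5 CPM in EMPTY, 142, 167 and 142 CPM in RUNX1-ETO_ONLY, 106, 108 and 109 CPM in CSF3R_ONLY, 91.5, 112 and 109 CPM in RUNX1-ETO_FIRST and 76.7, 70.5 and 54.3 CPM in CSF3R_FIRST. RUNX1-ETO_ONLY libraries were the highest and CSF3R_FIRST libraries the lowest, with no overlap. Pole had the largest order difference of the 45 genes (0.63, SE 0.13, adjusted p = 0.00315), rose by 0.37 with the fusion alone (SE 0.13, adjusted p = 0.0337) and fell by 0.53 when the receptor was then added (SE 0.13, adjusted p = 0.0068). Pola1, the catalytic subunit of polymerase alpha, which starts new strands with primase, was at 54.5, 45.2 and 36.8 CPM in EMPTY and 65.0, 63.0 and 49.7 CPM in RUNX1-ETO_ONLY, which overlap. It was at 46.7, 48.6 and 49.3 CPM in CSF3R_ONLY, 39.3, 47.5 and 41.1 CPM in RUNX1-ETO_FIRST and 34.3, 34.9 and 30.9 CPM in CSF3R_FIRST. The rise with the fusion alone was 0.38 (SE 0.13, adjusted p = 0.0305), a call lost in 5 of 14 alternatives. Its partner Pola2 and the primase subunit Prim1 each rose by 0.22 with the fusion alone (adjusted p = 0.0124 and 0.0184).

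Within primase the subunits differed. Prim1, the catalytic subunit, was at 37.5, 39.3 and 37.7 CPM in EMPTY, 42.7, 44.4 and 46.1 CPM in RUNX1-ETO_ONLY, 35.9, 32.7 and 36.7 CPM in CSF3R_ONLY, 30.0, 29.8 and 30.0 CPM in RUNX1-ETO_FIRST and 25.3, 25.9 and 25.3 CPM in CSF3R_FIRST. Prim2, the large subunit, was at 58.9, 56.4 and 70.4 CPM in EMPTY, 43.2, 41.6 and 50.1 CPM in RUNX1-ETO_ONLY, 50.7, 52.6 and 46.7 CPM in CSF3R_ONLY, 38.8, 34.2 and 33.8 CPM in RUNX1-ETO_FIRST and 27.6, 27.2 and 31.8 CPM in CSF3R_FIRST. So Prim1 was above EMPTY in all 3 RUNX1-ETO_ONLY libraries, whereas Prim2 was below EMPTY in all 3, with a fall of 0.46 (SE 0.10, adjusted p = 0.00218). The fall of Prim2 in CSF3R_FIRST relative to EMPTY, 1.10, was the largest of the 45 genes there (SE 0.11, adjusted p = 2.94e-07). Pold1, the catalytic subunit of polymerase delta, was at 213, 215 and 165 CPM in EMPTY, 195, 206 and 172 CPM in RUNX1-ETO_ONLY, 174, 184 and 182 CPM in CSF3R_ONLY, 150, 146 and 154 CPM in RUNX1-ETO_FIRST and 108, 114 and 99.4 CPM in CSF3R_FIRST, with CSF3R_FIRST apart from all others (order 0.49, SE 0.10, adjusted p = 0.00237). Pold2, its accessory subunit, was at 180, 176 and 236 CPM in EMPTY, 153, 147 and 175 CPM in RUNX1-ETO_ONLY, 137, 132 and 142 CPM in CSF3R_ONLY, 156, 133 and 135 CPM in RUNX1-ETO_FIRST and 115, 116 and 120 CPM in CSF3R_FIRST. It fell by 0.53 with the receptor alone (SE 0.11, adjusted p = 0.00111), the largest fall of a member in that comparison, and the further difference with the fusion added was -0.22 (SE 0.11, adjusted p = 0.102). Pole2, the accessory subunit of polymerase epsilon, was called only in the comparisons of CSF3R_FIRST with EMPTY and with CSF3R_ONLY, with falls of 0.35 and 0.41.

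**Figure D3:**
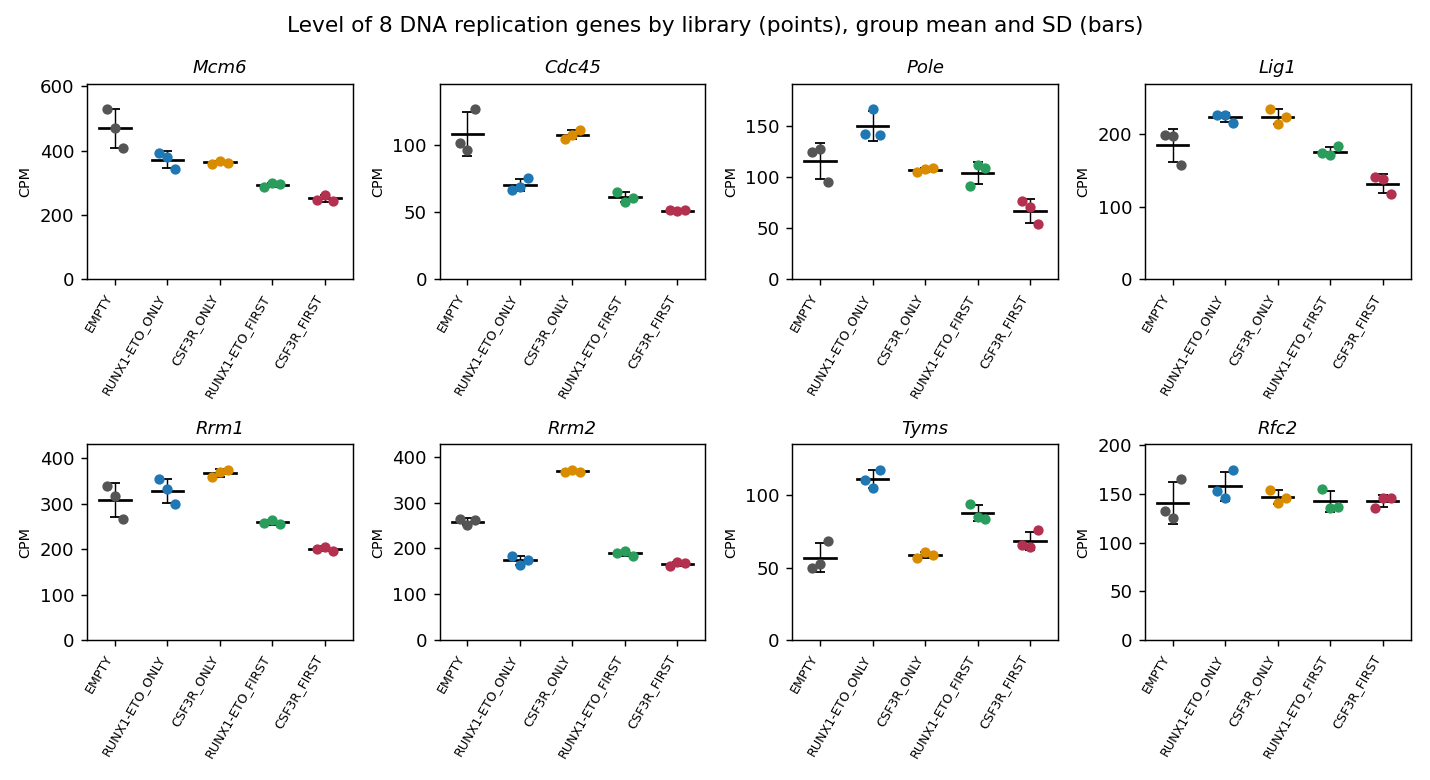
CPM of 8 of the genes in each library (points, 3 per group), with the group mean as a line and the SD as a bar, on axes that start at 0. Cdc45 is low in the 3 groups with the fusion, Rrm2 is high in CSF3R_ONLY and low wherever the fusion is present, Tyms is highest in RUNX1-ETO_ONLY, and Rfc2 lies at a like level in all groups.

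Among the 8 genes of the clamp, its loader and the single-strand binding protein RPA, 7 fell in each double group relative to EMPTY. The shares of all tested genes that fell were 20.2% in RUNX1-ETO_FIRST and 26.7% in CSF3R_FIRST. Pcna, the sliding clamp that tethers polymerases, was at 191, 183 and 220 CPM in EMPTY, 193, 165 and 188 CPM in RUNX1-ETO_ONLY, 233, 224 and 229 CPM in CSF3R_ONLY, 154, 154 and 158 CPM in RUNX1-ETO_FIRST and 132, 147 and 145 CPM in CSF3R_FIRST. CSF3R_ONLY libraries were the highest, and the double groups were low and close to each other (order 0.13, SE 0.08, adjusted p = 0.299). The fall with the fusion added to receptor cells was 0.69 (SE 0.08, adjusted p = 3.47e-06). In the order comparison only the clamp loader subunits Rfc3 (0.36, adjusted p = 0.0258) and Rfc5 (0.32, adjusted p = 0.00331) were called higher, against 7.22% of all tested genes. Rfc2, another loader subunit, was the member that moved least. It was at 132, 125 and 165 CPM in EMPTY, 153, 146 and 175 CPM in RUNX1-ETO_ONLY, 154, 140 and 146 CPM in CSF3R_ONLY, 155, 136 and 137 CPM in RUNX1-ETO_FIRST and 135, 146 and 146 CPM in CSF3R_FIRST. All pairs of groups overlapped except RUNX1-ETO_ONLY and CSF3R_FIRST, which lay just apart, and Rfc2 was called in no comparison, with an SE of 0.10 on the log2 scale in each pair comparison. In GENCODE models 15.1% of Rfc2 exon sequence overlaps Lat2 on the other strand, which had 22777 counts in all libraries against 38939 for Rfc2. Rpa1 and Rpa2, subunits of RPA, fell by 0.51 and 0.56 in CSF3R_FIRST relative to EMPTY (adjusted p = 7.15e-05 and 8.85e-05).

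The 5 genes of nucleotide supply moved in both directions, with log2 differences from -0.57 to 0.96 for the fusion alone. Rrm2, the small and cell-cycle-regulated subunit of ribonucleotide reductase, which makes deoxynucleotides, was at 263, 250 and 263 CPM in EMPTY, 183, 164 and 176 CPM in RUNX1-ETO_ONLY, 366, 371 and 367 CPM in CSF3R_ONLY, 189, 195 and 184 CPM in RUNX1-ETO_FIRST and 162, 170 and 168 CPM in CSF3R_FIRST. The alleles alone thus moved it in opposite directions, up by 0.51 with the receptor (SE 0.06, adjusted p = 8.09e-06) and down by 0.57 with the fusion (SE 0.06, adjusted p = 1.84e-06). When the fusion was added to receptor cells it fell by 1.14 (SE 0.06, adjusted p = 4.94e-10), the largest fall of the 45 genes there, whereas the receptor added to fusion cells left a difference of 0.12 (SE 0.06, adjusted p = 0.172). Rrm1, the large subunit, was at 340, 317 and 267 CPM in EMPTY, 354, 332 and 299 CPM in RUNX1-ETO_ONLY, 359, 370 and 375 CPM in CSF3R_ONLY, 258, 265 and 255 CPM in RUNX1-ETO_FIRST and 201, 206 and 196 CPM in CSF3R_FIRST. It was higher in RUNX1-ETO_FIRST than in CSF3R_FIRST by 0.37 (SE 0.09, adjusted p = 0.0069), and the other 12 libraries lay above the 3 of CSF3R_FIRST.

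Tyms, thymidylate synthase, which makes thymidine monophosphate, rose where most members fell. It was at 49.8, 52.3 and 68.2 CPM in EMPTY, 110, 105 and 117 CPM in RUNX1-ETO_ONLY, 56.2, 60.6 and 58.9 CPM in CSF3R_ONLY, 93.8, 85.0 and 83.5 CPM in RUNX1-ETO_FIRST and 65.7, 63.8 and 75.5 CPM in CSF3R_FIRST. All libraries of the fusion alone and of the fusion-first double lay above all others, and the fusion-alone libraries above those of the double. The rise was 0.96 with the fusion alone (SE 0.11, adjusted p = 2.74e-06) and 0.62 in RUNX1-ETO_FIRST relative to EMPTY (SE 0.11, adjusted p = 0.000196). In CSF3R_FIRST the rise of 0.27 relative to EMPTY (SE 0.11, adjusted p = 0.0474) rested on overlapping groups and was lost in 6 of 14 alternatives, among them those without CSF3R_FIRST replicate 1 or 3 or EMPTY replicate 1 or 2. Thymidine kinase Tk1, the salvage route to the same nucleotide, was at 65.6, 50.3 and 50.8 CPM in RUNX1-ETO_FIRST and 39.6, 40.0 and 45.4 CPM in CSF3R_FIRST (order 0.41, SE 0.14, adjusted p = 0.0564). Dut, which removes dUTP, was at 91.3, 88.4 and 83.1 CPM in RUNX1-ETO_FIRST and 80.2, 86.4 and 97.6 CPM in CSF3R_FIRST, with no difference called (log2 -0.01, SE 0.14). In EMPTY it was at 97.9, 96.7 and 149 CPM, and its falls relative to EMPTY in both double groups were not called without EMPTY replicate 3.

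Of the genes that finish Okazaki fragments, Lig1, DNA ligase I, was at 198, 196 and 157 CPM in EMPTY, 225, 226 and 215 CPM in RUNX1-ETO_ONLY, 234, 214 and 223 CPM in CSF3R_ONLY, 173, 170 and 183 CPM in RUNX1-ETO_FIRST and 140, 138 and 117 CPM in CSF3R_FIRST. Each allele alone placed Lig1 above EMPTY in all 3 libraries, by 0.27 with the fusion and 0.28 with the receptor (adjusted p = 0.0265 for each), and both alleles with the receptor first placed it below, by -0.48 (SE 0.09, adjusted p = 0.000345). Leaving out EMPTY replicate 3 ended both single-allele calls, with log2 values of 0.16 and 0.15. Lig1 was higher by 0.42 in the order comparison (SE 0.09, adjusted p = 0.00464). Fen1, the flap endonuclease, was at 94.2, 84.0 and 76.9 CPM in RUNX1-ETO_FIRST and 72.4, 75.7 and 66.8 CPM in CSF3R_FIRST (0.25, adjusted p = 0.0579), and 84.2% of its exon sequence overlaps genes on the other strand, so its counts are uncertain. The kit is strand-specific per the labels, but the strand setting of the counting is unknown here. Chaf1a (52.5%) and Gins2 (67.3%) have overlaps of the same kind.

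The 3 genes that rebuild chromatin behind the fork were all higher in the order comparison, against 7.22% of all tested genes. Uhrf1, which brings the maintenance DNA methyltransferase to new strands, was at 252, 251 and 265 CPM in EMPTY, 265, 253 and 268 CPM in RUNX1-ETO_ONLY, 257, 246 and 243 CPM in CSF3R_ONLY, 195, 200 and 209 CPM in RUNX1-ETO_FIRST and 168, 154 and 159 CPM in CSF3R_FIRST. The 9 libraries with no allele or 1 allele overlapped, the fusion-first libraries lay below all of them and the receptor-first libraries lay lower still. The order difference was 0.33 (SE 0.06, adjusted p = 0.00173). Chaf1a and Chaf1b, subunits of chromatin assembly factor 1, were each higher by 0.40 in the order comparison (adjusted p = 0.0112 and 0.0228). Chaf1b lost its call when replicate 1 or 3 of either double group was left out.

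The fusion's effect was then compared between cells without and with the mutant receptor, a difference tested in the same fit as CSF3R_FIRST minus RUNX1-ETO_ONLY minus CSF3R_ONLY plus EMPTY. It was negative and past the threshold for 31 of the 45 genes, against 12.5% of all tested genes, and positive for 0, against 10.4%, with a median of -0.52. Also 0 were positive at an unadjusted p under 0.05, with DESeq2 or with limma-voom. For 5 genes the fusion's effect had opposite signs that each passed the test. Pole rose by 0.37 in cells without the receptor allele and fell by 0.68 in cells with it, a difference of -1.05 (SE 0.19, adjusted p = 0.000685). Lig1 moved by 0.27 and -0.77, a difference of -1.04 (SE 0.13, adjusted p = 3.27e-05), and Pola1 by 0.38 and -0.53, a difference of -0.91 (SE 0.19, adjusted p = 0.0021). Prim1 moved by 0.22 and -0.46 and Pola2 by 0.22 and -0.31. Mcm6, Prim2 and Pold2, which fell with each allele alone, were among the 14 genes for which this difference was not called (-0.19, -0.33 and 0.09).

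**Figure D4:**
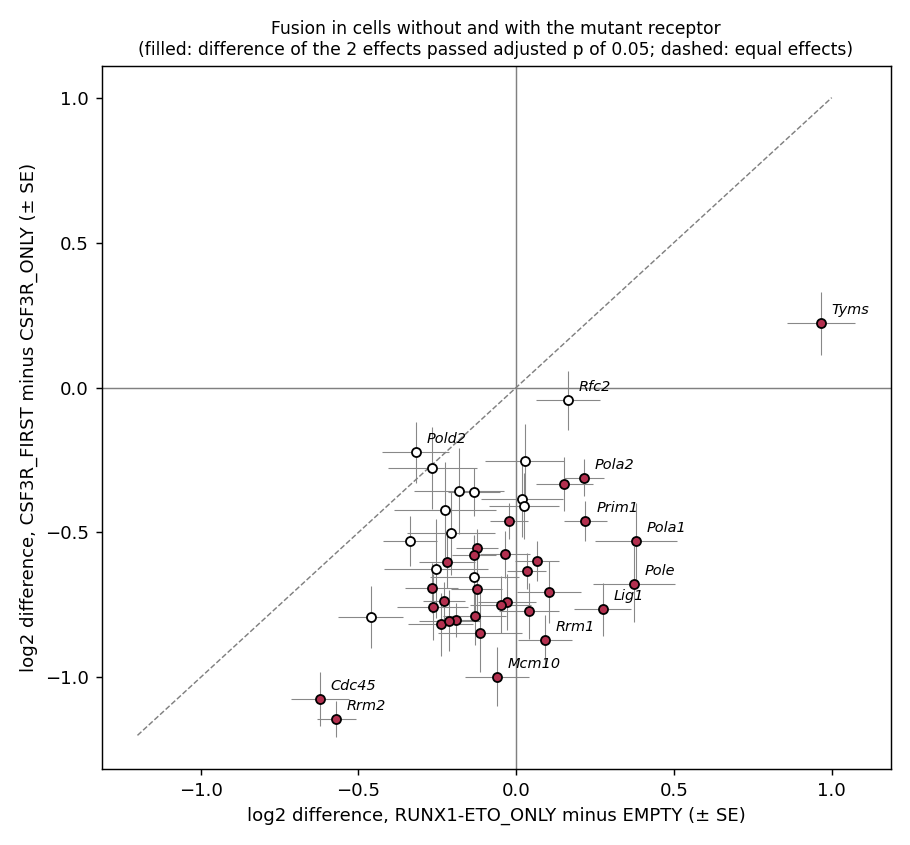
Each of the 45 genes by its log2 difference with the fusion alone (RUNX1-ETO_ONLY minus EMPTY, x axis) and with the fusion added to receptor cells (CSF3R_FIRST minus CSF3R_ONLY, y axis), with bars of 1 SE, a dashed line of equal effects and filled points where the difference between the effects had an adjusted p under 0.05. Most points lie below the dashed line, with Pole, Lig1 and Pola1 right of 0 and below 0, and Tyms far to the right.

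The same test with the fusion first, RUNX1-ETO_FIRST minus RUNX1-ETO_ONLY minus CSF3R_ONLY plus EMPTY, was negative and past the threshold for 8 genes, against 9.42% of all tested genes, and positive for 0, against 6.42%, with a median of -0.21. At an unadjusted p under 0.05 it was positive for 1 gene. DESeq2 and limma-voom called 0 positive. The 8 genes were Lig1 (-0.62), Rrm1 (-0.60), Mcm4, Gins3, Prim1, Pcna, Rrm2 and Uhrf1 (-0.34). Rrm1 rose by 0.26 with the receptor in cells without the fusion and fell by 0.34 in cells with it (difference SE 0.12, adjusted p = 0.00272). With limma-voom and sample weights 26 genes were called negative, and also 26 when the 4 libraries poor in long transcripts were left out.

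Promoter letters and response were set side by side as a description. Of the 14 genes with E2F letters 10 were higher in the order comparison, with a median of 0.36. Of the 23 matched genes without them 12 were, with a median of 0.26. The share of all tested genes was 7.22%. For the fusion added to receptor cells the medians were -0.62 and -0.65. Members with longer transcripts were called more often in the order comparison, 15 of 22 (median 0.36) against 9 of 23 with shorter ones (median 0.23), beside the 4 libraries that were low in long transcripts. All tested genes were not split by length, so these counts have no background to be read against. Without those libraries 31 of the 45 genes were higher in the order comparison and 0 lower, with a median of 0.26.

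Other genes of the pathway were counted in the same way. Of 43 further replication genes tested, such as further origin and polymerase subunits, fork protection and nucleotide genes, 17 were higher and 2 lower in RUNX1-ETO_FIRST than in CSF3R_FIRST (median 0.21), against 7.22% and 11.1% of all tested genes. Relative to EMPTY 24 fell in RUNX1-ETO_FIRST, against 20.2%, and 35 in CSF3R_FIRST, against 26.7%. When the fusion was added to receptor cells 35 fell, against 22.6%. In the order comparison the largest were Ticrr, needed for origin firing (0.70, SE 0.20, adjusted p = 0.0254), Dscc1, of an alternative clamp loader (0.60), and Dtl, which targets Cdt1 for destruction (0.58). The small polymerase delta subunit Pold4 (-0.52) and topoisomerase Top1 (-0.33) went the other way. Of 22 E2F and G1/S regulators, 9 rose and 2 fell with the receptor alone, against 19.9% and 13.2% of all tested genes. E2f2 rose by 2.22 (SE 0.12, adjusted p = 5.09e-10), the atypical repressor E2f7 by 1.33 (SE 0.19, adjusted p = 3.91e-05) and cyclin E1, Ccne1, by 0.80 (SE 0.09, adjusted p = 3.64e-06). When the fusion was added to receptor cells 17 of the 22 fell, against 22.6% of all tested genes, E2f2 by 2.36 and the E2F partner Tfdp2 by 1.39. In the order comparison 7 of the 22 were higher, against 7.22% of all tested genes, Tfdp2 by 0.77, and 1 was lower, against 11.1%, which was Rb1, the retinoblastoma gene (-0.47, SE 0.11, adjusted p = 0.00803).

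The 24 mitosis genes were compared as the phase of the cycle that follows replication. With the receptor alone 9 of them rose, against 19.9% of all tested genes, and 0 fell, against 13.2%, also 0 at an unadjusted p under 0.05. Ndc80 of the kinetochore rose by 0.62 (SE 0.09, adjusted p = 4.42e-05). All 24 fell when the fusion was added to receptor cells, Ndc80 by 1.24 and the kinase Aurkb by 1.11, and all 24 fell in CSF3R_FIRST relative to EMPTY, against 22.6% and 26.7% of all tested genes. In RUNX1-ETO_FIRST 13 fell relative to EMPTY, against 20.2%, and 3 relative to RUNX1-ETO_ONLY, against 10.3%. In the order comparison 19 were higher, against 7.22%, and 0 lower, against 11.1%, also 0 at an unadjusted p under 0.05. Their summed level was 3328 to 3385 CPM in CSF3R_ONLY, 2857 to 3139 in EMPTY, 2624 to 2816 in RUNX1-ETO_ONLY, 2484 to 2545 CPM in RUNX1-ETO_FIRST and 1958 to 1985 CPM in CSF3R_FIRST.

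Markers of blood cell types also differed between the groups. The 9 mast cell genes summed to 1735 to 2169 CPM in EMPTY, 3748 to 3829 in CSF3R_ONLY, 12196 to 13246 in RUNX1-ETO_ONLY, 16567 to 19817 CPM in RUNX1-ETO_FIRST and 29203 to 33546 CPM in CSF3R_FIRST. Of the 9, 8 were lower in the order comparison, against 11.1% of all tested genes. Of these markers Fcer1a had no counts in EMPTY, and each other marker had counts in every group. The largest term of the sum was Cpa3, a mast cell protease, with a mean of 986 CPM in EMPTY, 9435 CPM in RUNX1-ETO_ONLY and 16240 CPM in CSF3R_FIRST. Kit, the stem cell factor receptor, went the other way relative to EMPTY, with means of 331 CPM in EMPTY, 187 CPM in RUNX1-ETO_ONLY, 86.2 CPM in CSF3R_ONLY, 119 CPM in RUNX1-ETO_FIRST and 219 CPM in CSF3R_FIRST. The 10 neutrophil genes summed to 816 to 1345 CPM in EMPTY, 750 to 897 in RUNX1-ETO_ONLY, 6595 to 7123 in CSF3R_ONLY, 1093 to 1223 CPM in RUNX1-ETO_FIRST and 1867 to 2266 CPM in CSF3R_FIRST. Of the 10, 9 were lower in the order comparison, against 11.1% of all tested genes. Relative to EMPTY 6 rose and 3 fell in CSF3R_FIRST, against 26.8% and 26.7% of all tested genes. In RUNX1-ETO_FIRST 3 rose and 5 fell, against 23.7% and 20.2%. The chemokine receptor gene Cxcr2 had its highest mean in CSF3R_FIRST, 462 CPM against 19.7 CPM in EMPTY, whereas Ngp, a granule protein gene, was at 74.8 CPM there against 310 CPM in EMPTY. The mast cell sum was highest in CSF3R_FIRST, where the replication sum was lowest. In RUNX1-ETO_ONLY the mast cell sum was also above EMPTY. The replication sum there was 5729 to 5938 CPM, beside 6023 to 6254 CPM in EMPTY, with no overlap. The primary granule sum was lower than in EMPTY in all 4 other groups, both double groups included. Its largest term was Mpo, with means of 45076 CPM in EMPTY and 12432 CPM in CSF3R_FIRST. In CSF3R_FIRST 3 of the 4 genes fell relative to EMPTY, against 26.7% of all tested genes. The other, Ctsg, had a higher mean there, 3800 CPM against 3112 CPM in EMPTY, a difference that was not called. The part of these cell types in the levels of the 45 genes was not tested.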

How the data were processed

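The authors deposited 1 table of whole-number read counts per gene for 15 libraries. Per the labels' protocols, RNA was purified on columns with DNase treatment and made into strand-specific mRNA libraries for BGI sequencing, and mm10, DESeq2, STAR and Trimmomatic appear in the submitters' processing notes. The counting program, its strand setting and the annotation were not given in the sources used here. The entry that names no gene (0.0179% to 0.0305% of counts) was left out. Genes were filtered by filterByExpr, scaled by TMM and fitted over all 15 libraries in edgeR 4.0.16 (R 4.3.3, robust quasi-likelihood, 10 residual degrees of freedom). Adjusted p-values are Benjamini-Hochberg over the 13123 tested genes, and the SE is the log2 difference divided by the root of F. Only the edgeR steps of the order comparison were tested on simulated counts, with changes larger than the order differences of most members. The other comparisons and the alternatives were not simulated. Alternatives were DESeq2 1.42.0, limma 3.58.1 with sample weights, other filters and scaling, a replicate block, only the groups compared, and leaving out libraries. The members were picked by symbol, with no threshold on a measured value, but they and the lists were chosen with earlier results of these data known, so they are not independent of the data. Values per library are given for up to 4 members with the largest rise and 4 with the largest fall past the threshold in each pair comparison, the member with the highest mean CPM in each role, and members not called or going against the others. Further members were named after their values were seen. Of other lists up to 3 members per comparison are named. Promoters are RefSeq on GRCm38.p6, and positions and transcript lengths are GENCODE M21 on mm10. The length is that of all annotated exon sequence of a gene and not of a single transcript, so levels per kilobase depend on the annotation. Of 30 pairs of libraries with the same replicate number 9 had deviations correlated over 0.1 (r from -0.24 to 0.46). All 3 pairs exceeded 0.1 in RUNX1-ETO_ONLY with EMPTY (0.284, 0.283 and 0.455) and in CSF3R_FIRST with EMPTY (0.165, 0.136 and 0.370). Of 60 pairs with different numbers 12 also exceeded 0.1 (r from -0.36 to 0.38), among them CSF3R_FIRST replicate 1 with EMPTY replicate 2 (0.219). The replicate 3 libraries of these groups were all among the 4 low in long transcripts. So these correlations do not settle whether the numbers pair libraries, and the main fit had no replicate block. In the other comparisons not all 3 pairs exceeded 0.1.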

Additional observations from a re-analysis of the deposited data

Results flagged for a closer look

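For 5 genes the effect of the fusion had opposite signs, each called, in cells without and with the mutant receptor, and the difference itself was tested in edgeR. The fusion effect in CSF3R_ONLY cells minus that in EMPTY cells was -1.05 on the log2 scale for Pole (adjusted p = 0.000685), -1.04 for Lig1 (adjusted p = 3.27e-05), -0.91 for Pola1 (adjusted p = 0.0021), -0.68 for Prim1 (adjusted p = 0.000123) and -0.53 for Pola2 (adjusted p = 0.000466). Runx1t1 and Runx1 levels also differed between RUNX1-ETO_ONLY and CSF3R_FIRST, and their part in these differences was not tested. For 2 genes the receptor also had effects of opposite signs, each called, in cells without and with the fusion. Its effect in RUNX1-ETO_ONLY cells minus that in EMPTY cells was -0.62 for Lig1 (0.28 and -0.34, adjusted p = 0.0033) and -0.60 for Rrm1 (0.26 and -0.34, adjusted p = 0.00272). The rises with 1 allele alone are the weaker side of these pairs. With the fusion they were lost in 3 (Pole), 4 (Lig1), 5 (Pola1), 6 (Prim1) and 3 (Pola2) of 14 alternatives, and with the receptor in 6 (Lig1) and 7 (Rrm1) of 14.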

How the results depend on the processing

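Of 37 named gene and comparison pairs, 27 stayed called in all 14 alternatives. Of 518 single tests 473 stayed called, 45 did not and 0 changed sign. Counts below are of the 45 genes. Shares of all tested genes are not given for the alternative settings, here or above, so these counts only show how the members' calls moved. Leaving out 1 library at a time gave 15 to 19 higher for the order of alleles, 2 to 5 higher and 6 to 13 lower for the fusion alone, 1 to 3 higher and 3 to 8 lower for the receptor alone, 28 to 32 lower for RUNX1-ETO_FIRST and 39 to 43 lower with 0 to 1 higher for CSF3R_FIRST against EMPTY, 17 to 21 lower for the receptor added, 35 to 38 lower for the fusion added, and 6 to 11 and 27 to 35 negative differences between backgrounds with the fusion or the receptor first. The cause was not tested for any count that moved, beyond the fewer samples in these fits. With library sizes alone the counts were 4 lower for the fusion alone, 1 higher and 14 lower for the receptor alone, 0 higher for CSF3R_FIRST and 39 lower for the receptor added. Without a filter on low counts 1 was higher for the receptor alone and 5 differences with the fusion first were negative. With only the groups compared, 1 was higher and 3 lower for each allele alone, 20 lower for RUNX1-ETO_FIRST, 0 higher for CSF3R_FIRST and 1 higher for the fusion added. Without the 4 libraries low in long transcripts, chosen after seeing the data, 17 were lower for the fusion alone, 7 higher and 14 lower for the receptor alone, 2 higher for CSF3R_FIRST and 1 higher for the fusion added, with 1 positive and 26 negative differences with the fusion first. With limma-voom 16 were lower for the fusion alone, 7 higher and 12 lower for the receptor alone, 1 higher for the fusion added and 26 negative with the fusion first. DESeq2 called 1 higher for the receptor added.

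The replicate number was also used as a block, which the labels do not tie to a shared culture or day. With it no named call of the fusion alone or of CSF3R_FIRST against EMPTY was lost. These are the 2 comparisons in which all same-number pairs were correlated over 0.1. In this fit 26 genes were higher and 0 lower in the order comparison, 6 higher and 8 lower with the fusion alone, 4 and 8 with the receptor alone, 37 and 43 lower in RUNX1-ETO_FIRST and CSF3R_FIRST against EMPTY, and 26 and 40 lower with the receptor or the fusion added.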
